A study of Mus musculus with 8 samples.

Results

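Long internal coding exons are uncommon pieces of mammalian genes, and 1008 of them could be followed in mouse oocytes that lacked the m6A writer subunit VIRMA. An exon was included when every GENCODE M21 transcript holding it had other exons on both sides, when its protein-coding gene placed coding bases in it, when it was 400 or more bases long and when it held 40 or more counts over the 8 libraries together. Of 182647 internal coding exon IDs in the annotated part of the files, 5585 reached 400 bases. Of these, 3500 had no count, 4577 stayed under 40 counts and 1008, in 899 genes, were kept. The exons were thus chosen by length and by their summed count over all libraries, so neither is a result. The difference between the genotypes did not enter the choice.

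The study compared fully grown germinal vesicle (GV) oocytes, arrested in meiotic prophase, of 2 genotypes on the C57BL/6 strain. The cKO mice were Kiaa1429F/F;Zp3-Cre, with both alleles of Kiaa1429 (current symbol Virma) floxed, and gave 4 libraries. The control mice were Kiaa1429F/+;Zp3-Cre, with 1 floxed and 1 plain allele, and gave 4 libraries. Both genotypes carried the Zp3-Cre transgene, whose promoter is active in growing oocytes, so the control oocytes could also lose 1 copy. Females, 20 days old in one label and 3 weeks in another, received 5 IU of the gonadotropin PMSG. After 48 hours, oocytes of at least 70 µm were released into medium with 2.5 mM milrinone, and RNA of about 20 oocytes was reverse transcribed with oligo-dT and template switching. The labels do not say whether the libraries came from separate mice, and the p-values speak only to library-to-library spread.

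N6-methyladenosine (m6A) is deposited on RNA by a complex in which METTL3 and METTL14 form the catalytic core and VIRMA, WTAP, ZC3H13 and others form the regulatory part. The mark is concentrated near stop codons and in unusually long internal exons, while bases close to exon junctions are mostly free of it. Nuclear readers of m6A take part in splicing and in the choice of polyadenylation sites. Fully grown oocytes transcribe little and live on stored RNA, in which maternal-effect genes of the NLRP family are prominent. Those genes carry much of their coding sequence, including the nucleotide-binding NACHT domain, in 1 long exon.

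The exons on which the results turn are shown by their edges, since a read pair that crosses an edge meets a second exon ID and is set apart from the counts. Each window is taken from a GENCODE M21 transcript (GRCm38) and holds 15 bases on each side of an exon-exon junction. Capitals mark the bases of the long exon and lower case those of its neighbour. The first 4 exons had a larger share of their gene's counts in cKO oocytes and the next 4 a smaller share. The Pak7 pair is shown because its exons are neighbours and changed in opposite directions. The coordinates are chr12:72573490-72574502 for Pcnx4, chr13:55245518-55248077 for Nsd1, chr4:124838319-124838917 for Mtf1 and chr9:105945394-105946089 for Col6a5. They are chr8:91409223-91409841 for Fto, chr10:18591130-18592342 for Arfgef3, chrX:36623568-36624336 for Akap17b and chr8:14033336-14033764 for Erich1. The Pak7 exons lie at chr2:136116177-136116962 and chr2:136100737-136101228. Pcnx4, Nsd1, Mtf1 and Fto are on the plus strand and the others on the minus strand.
Pcnx4 exon 9 of 11, 1013 bases, 5′ edge: tgcattaatgttaagGGGTTAGAACTGCAG
Pcnx4 exon 9 of 11, 1013 bases, 3′ edge: TCGGAAAGCATTCAGgtatacactgaaact
Nsd1 exon 5 of 23, 2560 bases, 5′ edge: ggatataggcataagGTTCCTCAGAAGATT
Nsd1 exon 5 of 23, 2560 bases, 3′ edge: AGCTCCCTGAGCCAGctattcggtcagaga
Mtf1 exon 9 of 11, 599 bases, 5′ edge: accctctgcagacagCTGCCTTGATTGACA
Mtf1 exon 9 of 11, 599 bases, 3′ edge: AACCAAGAACAAATTcagcaagcatcgaaa
Col6a5 exon 3 of 41, 696 bases, 3′ edge: ACGTTGATAAGACAGttccctttcccacct
Fto exon 3 of 9, 619 bases, 5′ edge: gagttctatcagcagTGGCAGCTGAAATAC
Fto exon 3 of 9, 619 bases, 3′ edge: GCTATAGCTGCGAAGgctctgaggatgaaa
Arfgef3 exon 33 of 34, 1213 bases, 5′ edge: acatgccaagaaaagTGTCTCTTTCAGGGA
Arfgef3 exon 33 of 34, 1213 bases, 3′ edge: GAAGCGCAGATCCAGgcgtggaccaacatg
Akap17b exon 3 of 7, 769 bases, 5′ edge: cattttctgcataagGTGGTGTGAGGACAC
Akap17b exon 3 of 7, 769 bases, 3′ edge: GCATGTAATATTAAGgttatgtttgatacc
Erich1 exon 4 of 6, 429 bases, 5′ edge: gtggtgacacagaagATCTGGAACTTCCTG
Erich1 exon 4 of 6, 429 bases, 3′ edge: TTTATTTCTACGATGatactcccagagacg
Pak7 exon 5 of 11, 786 bases, 5′ edge: ctggctcccatgaagACAATCGTCAGAGGA
Pak7 exon 5 of 11, 786 bases, 3′ edge: ATGTGCATTCCAAAGgtggattacgatcga
Pak7 exon 6 of 11, 492 bases, 5′ edge: atgtgcattccaaagGTGGATTACGATCGA
Pak7 exon 6 of 11, 492 bases, 3′ edge: CTCCTTTTTAATGAGgtcgtgataatgcgt

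The libraries held 4399190 to 5064008 counts on exon IDs in cKO oocytes and 4247471 to 4790038 in control oocytes. The next shares are of the sum of pairs counted on 1 exon ID, on more than 1 and outside every exon ID. Read pairs that met more than 1 exon ID were 78.8% to 80.4% in the cKO libraries and 72.9% to 75.4% in the control libraries. Pairs outside every exon ID were 5.01% to 6.19% in cKO and 9.86% to 12.0% in control libraries. The part of these gaps in the results was not tested. The targeted gene, summed over its exon IDs, stood at 19.5 ± 3.32 CPM (each count scaled by its library's total and TMM factor) in cKO and 66.8 ± 10.9 CPM in control libraries (SD, n = 4 each). All 10 oocyte markers were counted, with a sum of 16828 to 21191 CPM in cKO and 31807 to 43904 CPM in control libraries. Of 16 cumulus and granulosa markers all but Wt1 were counted, with a sum of 455 to 754 CPM in cKO and 238 to 405 CPM in control libraries. For 8 theca and stroma markers the sums were 4.44 to 5.65 CPM in cKO and 6.25 to 8.02 CPM in control libraries, and for 4 vessel markers 4.49 to 11.9 CPM in cKO and 4.86 to 11.9 CPM in control libraries. For 8 immune and blood markers, with Ptprc, Adgre1, Cd74, Hba-a1 and Hbb-bs at 0, they were 5.77 to 9.39 CPM in cKO and 0.519 to 2.19 CPM in control libraries. The part of these cells in the results was not tested, and in pooled oocytes fewer cells of a type and less RNA per cell cannot be told apart. Control replicate 3 stood apart: long internal coding exons took 6.47% of its counts, against 4.89% to 5.26% in the other control and 4.93% to 5.36% in the cKO libraries.

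The 1008 exons had a median length of 808 bases, with quartiles at 568.75 and 1364.75 bases and a longest exon of 17106 bases. Their median total was 244.5 counts, with 286 exons under 100 counts and 220 at 1000 or more. All bases were coding in 792 of them and some bases lay outside the coding sequence in 216. No base was shared with another exon ID in 691, 317 shared some, and 5 had under 150 bases free of other exon IDs. The second exon of the transcript accounted for 250, and the exon before the last for 164. The median distance from the exon to the transcript's 3′ end was 2381.5 bases. A length divisible by 3, which would keep the reading frame if the exon were left out, was found in 39.2% of them and in 40.4% of all internal coding exon IDs.

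The exons took 5.08% ± 0.203 of counts in cKO and 5.47% ± 0.688 in control libraries (SD, n = 4 each), a gap smaller than the control spread. Last exons of protein-coding genes took 75.1% ± 0.620 in cKO and 71.2% ± 0.778 in control libraries, and these ranges do not overlap. Among counts on internal coding exons alone, the long ones held 62.1% ± 0.877 in cKO and 61.8% ± 3.49 in control libraries. The weight was unevenly spread: 10 exons held 47.8% of the counts on all 1008, and the NACHT exon of Nlrp14, a maternal-effect gene, held 23.8%.

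The most abundant exons belonged to oocyte genes. Levels are ranked per kilobase of full exon length, bases shared with other exon IDs included. The mean over all libraries was 7987 CPM for Nlrp14, 4356 CPM for Gm13084, 2597 CPM for Oog4 and 2309 CPM for Oog3. Lrr1, a subunit of a ubiquitin ligase that acts on the replisome, followed with 1198 CPM per kilobase, then Nlrp4f with 1151, Nlrp9a with 1107 and the zinc finger gene Zc3h6 with 930. Oog3 and Oog4 are oogenesins, a clustered oocyte family whose 3 exons compared here (with Gm13084) are 70.9% to 76.8% identical. Nlrp14 stood at 12322, 10571, 9605 and 12699 CPM in cKO libraries and at 12913, 11374, 18629 and 12970 CPM in control libraries. The groups overlap, and its log2 fold change of -0.31 did not pass the edgeR quasi-likelihood test (Benjamini-Hochberg adjusted p = 0.100), though it passed without control replicate 2 (adjusted p = 0.0243). Nlrp9a stood at 1176, 1043, 862 and 1119 CPM in cKO libraries and at 2561, 1956, 2776 and 2512 CPM in control libraries. Every cKO library is below every control library, and the level fell by 1.22 on the log2 scale (edgeR, adjusted p = 3.49e-06).

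The stretch that encodes the ATP-binding Walker A loop is printed for some of the NACHT exons. So short a stretch does not show how far reads could be shared between copies. Capitals mark the 24 bases of the loop.
Nlrp14: caaGGAGCTGCTGGAATTGGGAAGACAaca
Nlrp2: catGGCCCTCCAGGCTCTGGGAAAACCaca
Nlrp4c: caaGGAGCAGCGGGAATTGGCAAGTCAttg
Nlrp4e: caaGGAGTGGCGGGAATTGGCAAGTCActg
Nlrp4f: aaaGGCATGGCTGGAGTTGGCAAGACActg
Nlrp9a: tcaGGTTCTAGAGGAGGAGGTAAAACTact
Nlrp9b: gcaGGTACAACAGGAGAAGGAAAAACCact
Over the whole exon, the 9 NACHT exons were 60.4% to 93.8% identical in pairs, with a median of 62.4% and with Nlrp4c and Nlrp4e the closest pair. How reads that fit 2 copies were counted is not known here, so single members are uncertain to that extent. Of the 10 exons in genes of the Nlrp list, 9 were tested for level. Of these, 5 fell and 1 rose, together 66.7% called, against 53.5% of all tested exon IDs, and their median log2 fold change was -0.74. Nlrp9b averaged 494 ± 97.5 CPM in cKO and 1293 ± 349 CPM in control libraries, a fall of 1.39 on the log2 scale. Nlrp2 averaged 862 ± 137 CPM in cKO and 1887 ± 539 CPM in control libraries (log2 fold change -1.13, edgeR adjusted p = 7.57e-05). Nlrp4b and Nlrp4f had log2 fold changes of -0.83 and -0.74 and passed the same test. Nlrp5, which encodes a component of the subcortical maternal complex, had -0.25 (adjusted p = 0.167), and Nlrp4e had -0.44 (adjusted p = 0.126). The Nlrp5 exon shares bases with another exon ID, that of a single-exon transcript. This overlapping ID fell in level by 0.94 (edgeR, adjusted p = 0.000423). Nlrp4c alone rose, with 168, 190, 178 and 175 CPM in cKO libraries and 80, 64, 96 and 70 CPM in control libraries (log2 fold change 1.19, edgeR adjusted p = 7.9e-06). Its 2 groups are apart, although its sequence is the closest to that of Nlrp4e. None of these 9 exons passed the usage test described below. That test sets an exon against its whole gene, itself included, so an exon with most of the gene's counts can show little change. The Nlrp9a exon, for example, held 99.3% to 99.6% of its gene's tested counts, and for such an exon the absence of a call says little. The Nlrp2 exon held 86.9% to 90.3% in cKO and 95.7% to 96.4% in control libraries, with a usage change of -0.10. Nlrp2 was called with limma's diffSplice, an alternative (log2 change -1.61, adjusted p = 1.79e-06).

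**Figure D1:**
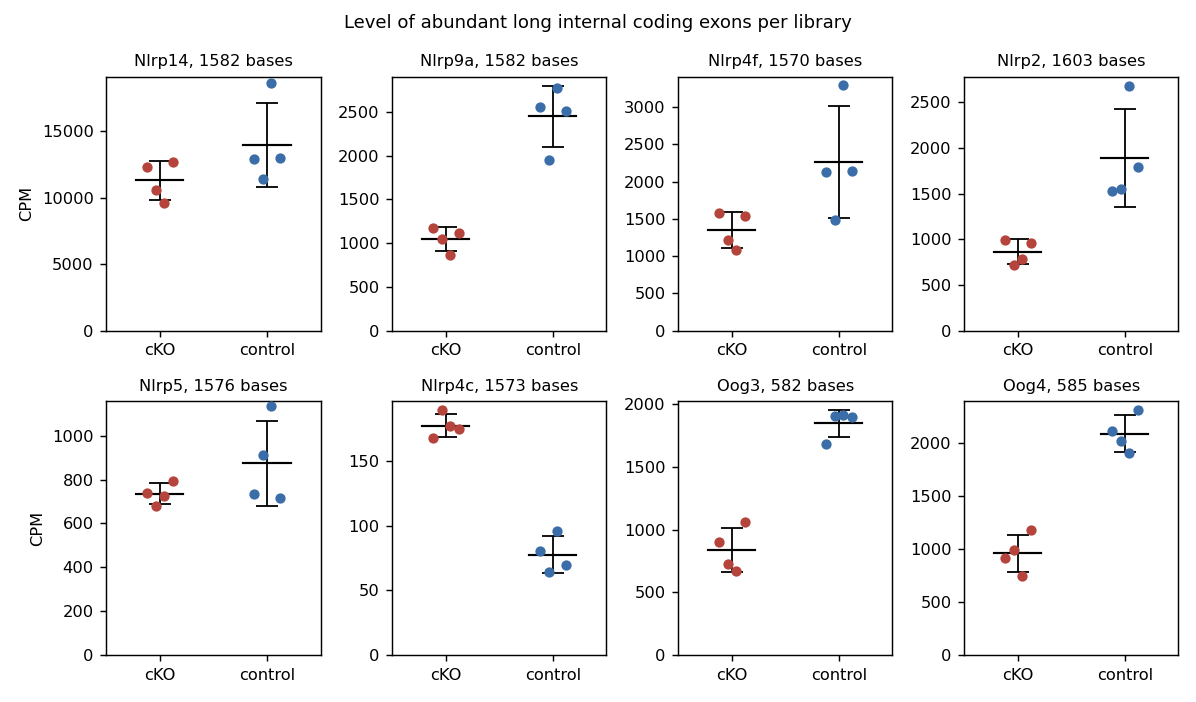
Level in CPM of 8 abundant long internal coding exons, each point 1 library, cKO left and control right, with the mean (long bar) and SD. Nlrp9a, Nlrp2, Oog3 and Oog4 sit lower in every cKO library than in any control library, Nlrp4c sits higher, and Nlrp14, Nlrp4f and Nlrp5 overlap.

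The other abundant exons moved by less than 3-fold. Oog3 averaged 840 ± 176 CPM in cKO and 1848 ± 109 CPM in control libraries, and Oog4 averaged 956 ± 177 CPM in cKO and 2082 ± 174 CPM in control libraries. Both fell, with log2 fold changes of -1.14 and -1.12 (edgeR, adjusted p = 9.74e-06 and 8.5e-06). Lrr1 rose to 1071 ± 37.0 CPM in cKO, against 659 ± 112 CPM in control libraries (log2 fold change 0.70, edgeR adjusted p = 0.000402). Zc3h6 had 427 ± 38.4 CPM in cKO and 508 ± 44.5 CPM in control libraries, which did not pass (adjusted p = 0.0969). Gm13084 had a log2 fold change of -0.32 with an adjusted p of 0.0407 and overlapping groups. That call was lost under 8 of 15 alternatives, including 4 that each left out 1 library.

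Level, the CPM of an exon regardless of its gene, was tested for 791 exons. The other 217 fell under the abundance limit of the test (2.27 CPM in 4 libraries). Of the 791, 195 rose and 130 fell at an adjusted p under 0.05 in edgeR's quasi-likelihood test. Over all 14052 exon IDs tested, 53.5% were called, 26.2% higher and 27.3% lower, so the 41.1% called among the long internal coding exons is below the background. Their median log2 fold change was 0.12, against 0.01 over all tested exon IDs. Of 1789 tested internal coding exons under 400 bases with 40 or more counts, 301 rose and 516 fell, with a median of -0.16. Of 6528 last exons of protein-coding genes, 2286 rose and 1385 fell, with a median of 0.19. The groups of 4 did not overlap for 33.8% of the long internal coding exons and for 48.6% of all tested exon IDs. Some exons passed the abundance limit through one genotype: 25 reached it in all 4 cKO and no control library, and 10 in all 4 control and no cKO library.

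The largest changes in level are given for exons with an official symbol, a mean of at least 5 CPM and groups apart, so that this separation is part of the choice. Among them, the largest rises were of exons nearly absent from control oocytes. The Rhox2a exon of 412 bases, in a reproductive homeobox gene of a multicopy X-linked cluster, had 37, 59, 61 and 46 counts in cKO libraries and none in any control library. Set against a floor of 3 counts over the control group, it was 59.2-fold higher in cKO. That figure depends on the floor and is not a lower bound, since the exact 95% interval of the ratio began at 47.7. The Ninl exon of 1041 bases, in a gene for a ninein-like centrosomal protein, had 57, 74, 54 and 69 counts in cKO libraries and 0, 1, 1 and 2 in control libraries. Its ratio of normalised sums was 55.5 (95% exact interval 21.4 to 205, counting error only). The Zfp800 exon of 1687 bases, in a zinc finger gene, had 64, 80, 64 and 102 counts in cKO libraries and 2, 2, 1 and 1 in control libraries, a ratio of 45.2 (20.5 to 124). These 3 exons, with those of Kl and Cxxc5, reached the abundance limit in cKO libraries only, so a difference was built into their being tested. Arhgap24, a gene for a GTPase-activating protein, had 117 to 254 counts on its 1078-base exon in cKO libraries and 6 to 13 in control libraries (log2 fold change 4.39, SE 0.31). Kl, which encodes the FGF co-receptor klotho, had 32 to 65 counts in cKO libraries and 0 to 4 in control libraries, a log2 fold change of 4.31 (SE 0.45). Cxxc5, a CXXC zinc finger gene, had 42 to 67 counts in cKO libraries and 2 or 3 in each control library, a ratio of 19.2 (10.2 to 40.5). In Ninl, Kl and Cxxc5 the last exon of the gene also rose, by log2 fold changes of 3.37, 3.15 and 3.49. The cumulus and granulosa markers, higher in the cKO libraries, include 1 gene with a long internal coding exon, Nr5a2, whose 641-base exon rose (log2 fold change 1.05, edgeR adjusted p = 0.005).

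The largest falls under the same limits were smaller in size. The Cdh8 exon of 452 bases, in a cadherin gene, had 3, 9, 3 and 6 counts in cKO libraries and 59, 54, 59 and 50 in control libraries. It reached the abundance limit in control libraries only, so a difference was built into its being tested (log2 fold change -3.57, SE 0.31, edgeR adjusted p = 3.24e-07). Sh3bp4, which acts in endocytosis, had 2 to 13 counts on its 2357-base exon in cKO libraries and 13 to 79 in control libraries (log2 fold change -2.56, SE 0.55). Its lowest control library and its highest cKO library both had 13 counts and differed only after scaling for depth. Nyap2, a phosphoinositide 3-kinase adaptor, had 35 to 48 counts in cKO libraries and 153 to 234 in control libraries (log2 fold change -2.53, SE 0.21). Trpm6, a magnesium channel, had 8 to 14 counts in cKO libraries and 31 to 70 in control libraries (log2 fold change -2.35, SE 0.31). Smok2a, of the multicopy sperm motility kinase family, had 60, 39, 3 and 26 counts in cKO libraries and 201, 108, 95 and 174 in control libraries (log2 fold change -2.33, SE 0.46). In edgeR's quasi-likelihood test the adjusted p-values of these 5 lay between 1.73e-07 and 0.00109.

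Usage asks whether an exon changed relative to the other tested exons of its own gene. It is given below both as a percentage, the exon's counts over the counts of all tested exons of the gene, and as a log2 change of the exon beyond that of its gene (diffSpliceDGE of edgeR). It could be tested for 611 exons in 532 genes, since 180 were the only tested exon of their gene. Of the 611, 35 rose and 24 fell at an adjusted p under 0.05. Over all 6931 exon IDs tested for usage, 13.3% were called, 6.31% higher and 6.95% lower, against 9.66% of the long internal coding exons. Of 1507 tested internal coding exons under 400 bases, 96 rose and 141 fell, together 15.7%. One library bears strongly on the rises: 61 were called without control replicate 3, and 23 without control replicate 1. Calls were fewer among abundant exons, with 5 rises and 6 falls among 53 exons under 100 counts (20.8%) and 3 rises and 5 falls among 176 exons of 1000 or more counts (4.55%). Of the 286 exons under 100 counts, only 71 passed the abundance limit. Exons with so few counts can pass it through the genotype where they are high, so the 20.8% is partly fixed by the filter.

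The exons that rose in usage had a median share of 26.9% of their gene's tested counts in cKO and 10.7% in control oocytes. Those that fell had a median of 11.9% in cKO and 30.5% in control oocytes. The size of the called changes ran between 0.66 and 2.75 on the log2 scale for rises and between 0.54 and 2.46 for falls. Level rose as well in 19 of the 35 and fell in none, while the other 16 had no call in level. Among the 24 that fell, level fell in 18, rose in none and had no call in 6. For 15 of the 35 and 10 of the 24 the gene had only 2 tested exons, so that the change of one cannot be assigned to it rather than to its partner from usage alone. Of the 59 calls, 32 were kept when each library in turn was left out. The largest changes, named next, were chosen with groups apart. Of the exons named for usage, those of Ninl and Cpq reached the abundance limit in cKO libraries only, and those of Fto, Hectd4 and Crb1 (548 bases) in control libraries only.

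The largest rise was in exon 9 of Pcnx4, which encodes a multipass membrane protein of the pecanex family. It held 12.8%, 9.63%, 13.2% and 11.4% of the gene's tested counts in cKO libraries and 1.40%, 1.83%, 2.91% and 0.873% in control libraries. Usage rose by 2.75 on the log2 scale (SE 0.26, edgeR adjusted p = 3.17e-10). Nsd1 encodes a histone H3 lysine 36 methyltransferase. Its exon of 2560 bases had 39, 85, 91 and 40 counts in cKO libraries and 19, 11, 18 and 18 in control libraries. That was 6.03% ± 2.19 of the gene's tested counts in cKO and 1.09% ± 0.205 in control oocytes (log2 change 2.50, SE 0.30, edgeR adjusted p = 9.36e-07). The only other tested exon of Nsd1, its last, fell by 0.82 on the log2 scale. Mtf1 encodes a metal-responsive transcription factor. Its 599-base exon had 10 to 14 counts in cKO libraries and 6 to 12 in control libraries, and its level did not pass the test (log2 fold change 0.39, adjusted p = 0.349). Its share of the gene was 41.7% to 76.5% in cKO libraries and 7.79% to 16.4% in control libraries (usage change 2.30, SE 0.37, edgeR adjusted p = 2.95e-05), while the first exon and an upstream last exon fell by 2.87 and 2.82. Col6a5, a collagen VI chain, had 26, 28, 20 and 53 counts on exon 3 in cKO libraries and 8, 7, 12 and 3 in control libraries (usage change 2.03, SE 0.35, edgeR adjusted p = 7.26e-05). Its level rose by 1.85 while its last exon fell by 0.96, and another long exon of Col6a5, of 690 bases near the 3′ end, was not called (-0.62).

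Further rises were seen in Elf1, an ETS transcription factor, Cpq, a secreted carboxypeptidase, Ninl and Ttn. The 447-base exon of Elf1 held 26.9% ± 2.65 of tested counts in cKO and 7.21% ± 2.72 in control oocytes (log2 change 1.91, SE 0.30). The 448-base exon of Cpq had 15 to 27 counts in cKO libraries and 2 to 6 in control libraries, while the last exon of the gene had a log2 fold change of 0.07. Its share was 28.4% ± 4.32 in cKO and 7.96% ± 3.23 in control oocytes (log2 change 1.79, SE 0.33). In Cpq the second exon rose in level by 2.22 and the last was not called. Ninl rose in usage by 1.74 (edgeR, adjusted p = 0.0272), a call lost under 7 of 15 alternatives, 4 of which left out 1 library each. A 588-base exon of Ttn rose in usage by 1.69 (edgeR, adjusted p = 0.00281) on 9 to 13 counts in cKO libraries and 2 to 11 in control libraries.

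The largest fall was in exon 3 of Fto, which encodes an m6A demethylase and so acts against the complex that VIRMA serves. It had 1, 6, 6 and 6 counts in cKO libraries and 18, 13, 14 and 10 in control libraries. Its share of the gene's tested counts was 2.22%, 6.59%, 4.80% and 6.38% in cKO libraries and 36.0%, 21.7%, 34.1% and 31.3% in control libraries. Usage fell by 2.46 on the log2 scale (SE 0.43, edgeR adjusted p = 0.000163). The exon reached the abundance limit in control libraries only, so a difference was built into its being tested. The last exon of Fto rose by 1.19 (edgeR, adjusted p = 0.00315), so the exon and the end of its gene moved in opposite directions on a total of 74 counts for the exon. The 1213-base exon of Arfgef3, an ARF-GEF family gene, stands next to the last exon. It had 3, 5, 10 and 5 counts in cKO libraries and 16, 31, 22 and 20 in control libraries (usage change -2.12, SE 0.40, edgeR adjusted p = 0.000204). The level of that last exon of Arfgef3 was not called (log2 fold change 0.07), nor was that of another long exon, of 899 bases (-0.23). The usage call was lost when last exons were left out of the gene (log2 change -1.26, adjusted p = 0.0596). The Arfgef3 exon reached the abundance limit in 4 control libraries and in 1 cKO library.

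Akap17b is an A-kinase anchoring protein gene on the X chromosome. Its exon 3 had 129, 126, 112 and 132 counts in cKO libraries and 438, 328, 395 and 457 in control libraries. The share was 7.45% ± 0.801 in cKO and 20.3% ± 2.24 in control oocytes (usage change -1.46, SE 0.15, edgeR adjusted p = 1.71e-09). The other 4 tested exons of Akap17b, on both sides of it, had level changes between -0.38 and 0.47, none of which passed the test, so the long exon was the only one of the 5 to be called. The 429-base exon of Erich1, a glutamate-rich protein gene, held 9.56% ± 2.08 in cKO and 30.3% ± 2.69 in control oocytes (usage change -1.66, SE 0.24). Its own level did not pass (log2 fold change -0.54, adjusted p = 0.0826), while a 192-base internal exon and the last exon of Erich1 rose by 1.41 and 1.53.

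The remaining named falls had fewer counts. Tmem132d, a transmembrane protein gene, had 7 to 13 counts on its second exon in cKO libraries and 31 to 54 in control libraries, with a share of 17.0% ± 4.52 in cKO and 45.0% ± 10.7 in control oocytes (usage change -1.43, SE 0.36). Its level fell by 2.29. Toward the 3′ end, internal exons of 147 and 184 bases had level changes of -1.06 and -0.79, the first of them called, and the last exon 0.19. Its usage call was lost when last exons were left out (-0.65, adjusted p = 0.365). The 513-base second exon of Fam210a, a gene for a mitochondrial protein, had 5 to 12 counts in cKO libraries and 14 to 18 in control libraries (usage change -1.90, SE 0.30). The last exon of Fam210a rose by 0.71. A 518-base exon of Hectd4, which belongs to the HECT-domain gene family, had 2 to 7 counts in cKO libraries and 11 to 20 in control libraries, and its usage change of -1.38 (adjusted p = 0.0483) was lost under 12 of 15 alternatives. In edgeR the adjusted p-values of the Tmem132d and Fam210a changes were 0.00455 and 4.01e-05.

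**Figure D2:**
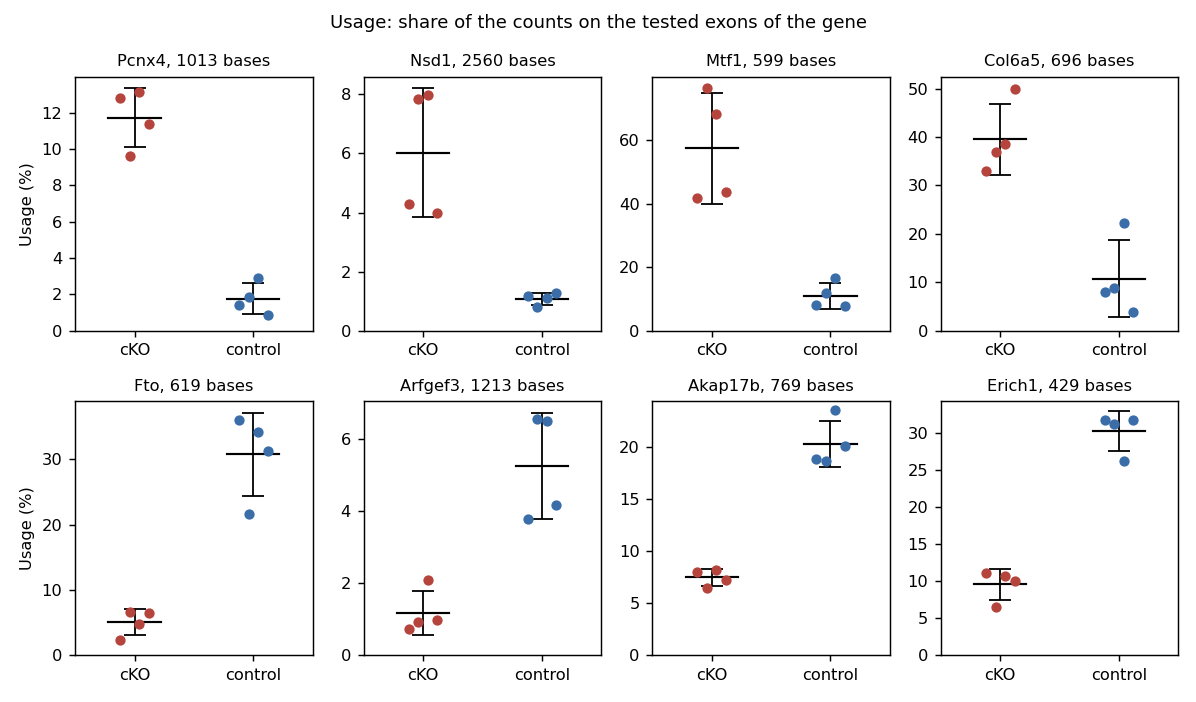
Usage, the share in percent of the counts on the gene's tested exons, for 4 exons that rose and 4 that fell, each point 1 library, cKO left and control right, with the mean (long bar) and SD. The exons were chosen with groups apart, so their separation is part of the choice. Fto is 2.22% to 6.59% in cKO and 21.7% to 36.0% in control libraries.

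Some genes showed a turning point between 2 of their own long exons. These were singled out after their values had been seen. In Pak7, a p21-activated kinase gene, exon 5 of 786 bases had 640, 636, 587 and 770 counts in cKO libraries and 1681, 1379, 1356 and 1464 in control libraries. The next exon, of 492 bases, had 119, 209, 216 and 181 counts in cKO libraries and 93, 73, 132 and 100 in control libraries. Exon 5 fell by 1.35 in level (edgeR, adjusted p = 3.26e-07), with groups apart, and exon 6 had a log2 fold change of 0.66 (adjusted p = 0.0265) with overlapping groups. Exon 6 rose in usage by 1.47 (edgeR, adjusted p = 3.74e-07) and exon 5 fell in usage by 0.54 (adjusted p = 0.0236), a call lost under 5 of 16 alternatives. Upstream, a 215-base exon of Pak7 fell by 0.87, and downstream the last exon rose by 0.62, so the direction changed at the junction printed above as the 3′ edge of exon 5. The call on the level of exon 6 was lost in 4 of the 8 fits that left out 1 library.

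In Pcnx4 the 743-base exon 2 had 275, 242, 191 and 293 counts in cKO libraries and 985, 792, 769 and 835 in control libraries, and it fell by 1.95 in level (edgeR, adjusted p = 8.17e-08). The first exon of Pcnx4 fell as well, by 2.42, while exon 9 rose by 1.29 and the last exon by 1.33. Among the tested exons of Pcnx4, those at the 5′ side thus fell in level and those at the 3′ side rose. Exon 2 still held the larger share: 64.4% ± 3.13 in cKO and 90.8% ± 1.04 in control oocytes. The usage change of exon 2 did not pass the test (-0.49, edgeR adjusted p = 0.0654), though it passed under 2 of 16 alternatives. In Crb1, which encodes a crumbs polarity protein, the 548-base exon 7 had 3, 2, 5 and 4 counts in cKO libraries and 16, 12, 21 and 13 in control libraries. Crb1 exon 9, of 907 bases, had 126, 84, 111 and 66 counts in cKO libraries and 81, 83, 76 and 67 in control libraries. Exon 7 fell in usage by 1.42 (edgeR, adjusted p = 0.0151) and exon 9 rose in usage by 1.04 (adjusted p = 0.00102). In level, exon 7 fell by 2.30 (edgeR, adjusted p = 0.000133), while exon 9 was not called (log2 fold change 0.16, adjusted p = 0.596). The call on exon 7 was lost under 4 of 15 alternatives and that on exon 9 when last exons were left out. Between the first exon and exon 7 lies an alternative last exon of Crb1, of 3459 bases, which fell by 4.01 in level, while the distal last exon rose by 0.70.

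Over all long internal coding exons such splits were uncommon. Of 65 genes with 2 or more tested ones, 46 had changes of a single sign, the median span between the lowest and highest change was 0.32 on the log2 scale, and 13 had a span of at least 1. Calls in both directions were made in 2 genes for level and in 3 for usage. In 5 genes 4 or more exons were included. Kmt2c, a histone H3 lysine 4 methyltransferase gene, had 4, with level changes of -0.53, -0.64, -0.74 and -0.64 in transcript order, of which those of the exons of 1820 and 1707 bases passed the test. The call on the exon of 1820 bases was lost without cKO replicate 4. Alms1, a centrosomal gene, had 4 with changes between -0.57 and -0.13, and only that of 1796 bases passed (adjusted p = 0.0379), a call lost under 9 of 15 alternatives. Zc3h13, a subunit of the m6A writer, had 4, of which 3 were tested, with changes of -0.34 to -0.23 and no call. Col6a6 had 7, of which 4 were tested; those of 672 and 576 bases fell, by 0.89 and 1.35.

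Ttn, the giant sarcomere gene, had 7 long exons including the longest of all. The exon of 17106 bases had 8, 7, 17 and 17 counts in cKO libraries and 61, 63, 45 and 45 in control libraries. Its level fell by 2.31 (edgeR, adjusted p = 8.47e-06) and its usage by 1.05 (adjusted p = 0.0227), a usage call lost without cKO replicate 2, without last exons and against last exons only. Ttn exons of 2967 and 1694 bases fell in level by 2.40 and 1.33, the first reaching the abundance limit in control libraries only. The 588-base exon, 2 exons farther on in the transcript, had a log2 fold change of 0.43 (adjusted p = 0.424). Its counts overlap between the genotypes, unlike those of the large exon.

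**Figure D3:**
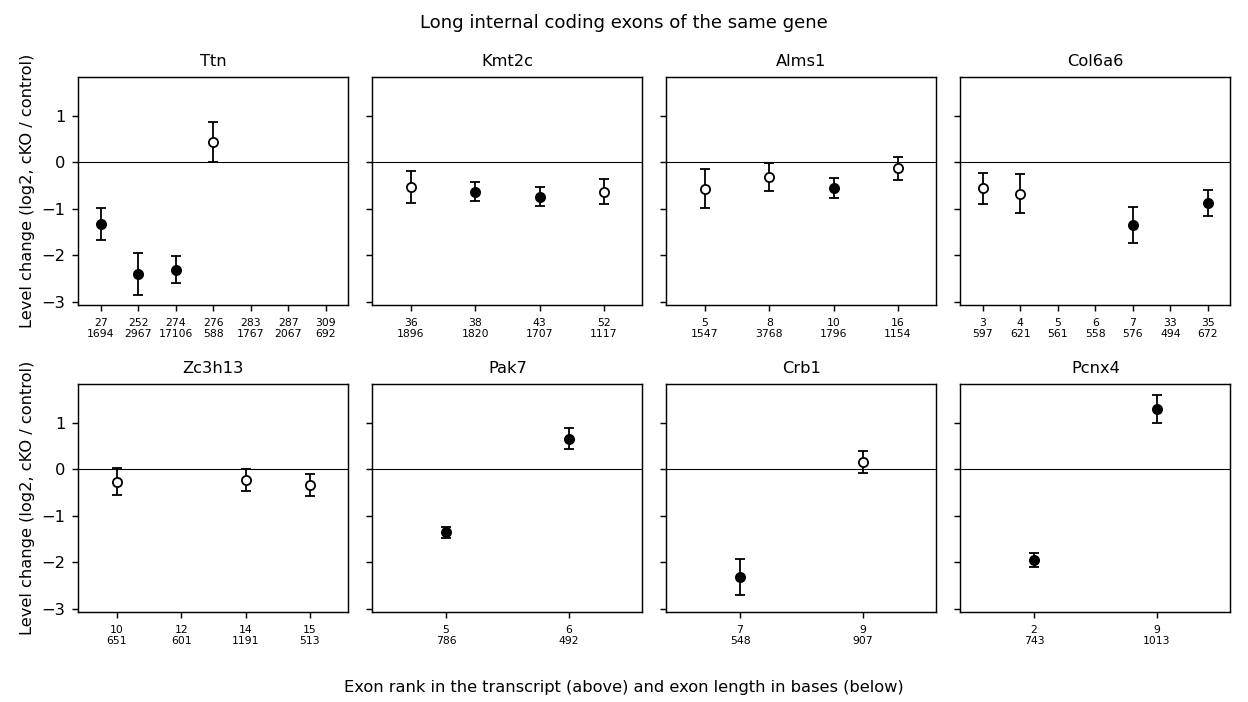
Level change (log2, cKO over control) of long internal coding exons in 8 genes, in transcript order, with SE bars; filled points passed the edgeR test and open points did not, and exons with no point were not tested. In Pak7, Pcnx4, Crb1 and Ttn the sign changes along the gene, while Kmt2c, Alms1, Col6a6 and Zc3h13 lie below 0 in every tested exon.

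The last exon gives a second reading of the same gene, and most counts come from it. For 500 exons in 446 genes the most counted last exon was tested too. Across these exons the level changes had a Pearson correlation of 0.65 and a Spearman correlation of 0.64, a description over exons of shared libraries. Both changes were called for 160, in the same direction for 146 and in opposite directions for 14. The long exon alone was called for 56, the last exon alone for 117 and neither for 167. The median of the difference between the long exon and the last exon was -0.0033. The 14 opposite exons were in 8030462N17Rik, Ap4e1, Col6a5, Cyp7b1, Dusp10, Exo1, Fam210a, Fto, Nsd1, Nup160, Pak7, Pcmtd1, Pcnx4 and Rbbp6. The long exon rose and the last fell in Col6a5, Dusp10, Exo1, Nsd1 and Rbbp6, and the reverse held in the other 9.

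Exons outside the rule for naming were taken from these 14 after their values were seen. Dusp10, a phosphatase of stress-activated kinases, had 53, 49, 49 and 73 counts on its second exon in cKO libraries and 29, 21, 38 and 22 in control libraries, with the groups apart (log2 fold change 0.82, edgeR adjusted p = 0.0121). The last exon of Dusp10 fell by 0.45. Pcmtd1 had 19, 11, 18 and 18 counts on its second exon in cKO libraries and 60, 56, 21 and 48 in control libraries (log2 fold change -1.66, edgeR adjusted p = 0.000319). Its share was 30.5% ± 4.01 in cKO and 75.1% ± 5.99 in control oocytes, and its last exon rose by 1.19. Nup160, a nuclear pore scaffold gene, had 2, 1, 10 and 10 counts on its second exon in cKO libraries and 26, 11, 5 and 15 in control libraries. Its groups overlap, and the level call (log2 fold change -1.47, edgeR adjusted p = 0.0303) was lost in 4 of the 8 fits that left out 1 library.

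**Figure D4:**
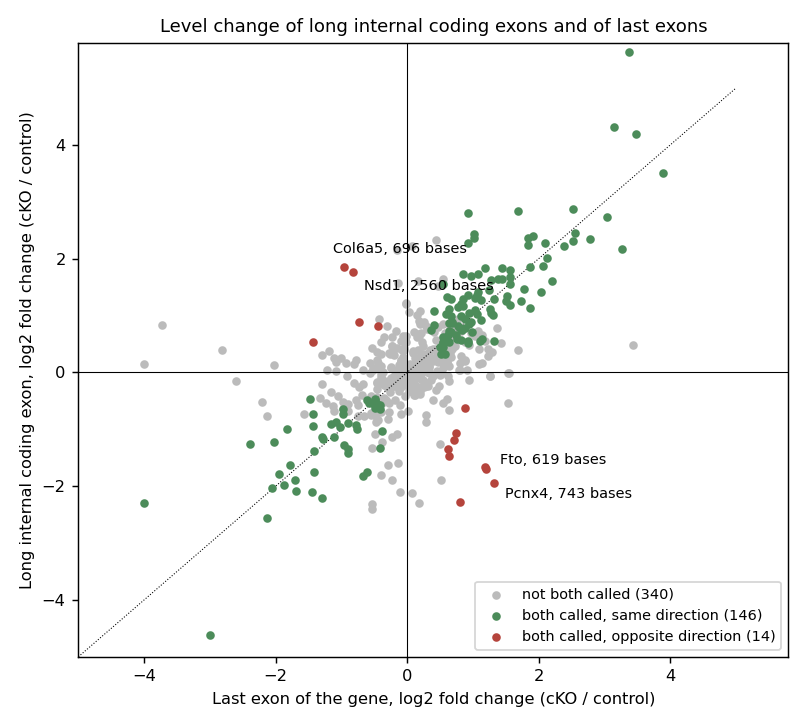
Level change (log2, cKO over control) of each of 500 long internal coding exons on the vertical axis and of the most counted last exon of its gene on the horizontal axis; the dotted line marks equal change. Green points (146) were called in the same direction, red points (14) in opposite directions and grey points (340) were not both called.

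A last exon can also lie upstream of a long exon, where it ends a shorter transcript. This count was made after the values had been seen. A tested upstream last exon was found for 4 of the 35 exons that rose in usage, for 5 of the 24 that fell, where it fell in 2 and rose in 2, and for 24 of the 552 not called. It fell in Crb1, Mtf1 and Tut7 among the rises, by 4.01, 2.82 and 3.72 on the log2 scale. A tested downstream last exon was found for 27 of the 35, where it fell in 13 and rose in 6, for 19 of the 24, where it fell in 1 and rose in 11, and for 438 of the 552 not called, where it fell in 88 and rose in 154. Usage is measured against such exons, so these counts are partly fixed by the measure.

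Length, position and sequence separated the changed exons little. Across the 611 exons the Spearman correlation of usage change was 0.12 with length, 0.08 with distance to the 3′ end, 0.08 with GC content and 0.04 with GGACT per kilobase. These are descriptions across exons, which are not independent replicates. Of 79 tested exons of 2000 or more bases, 6 rose in usage and 1, in Ttn, fell. Of 171 exons of 400 to under 600 bases, 10 rose and 9 fell. By distance to the transcript's 3′ end, 7 rose and 7 fell among 177 tested exons within 1666 bases. Beyond 3380 bases, 19 rose and 11 fell among 223, together 13.5% and close to the 13.3% over all exon IDs. Exons of a length divisible by 3 were called in 9.27% and the others in 9.92%.

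The letters GGACT, the core of the sequence most often methylated to m6A, were counted on the transcript strand. They stood 1.12 times per kilobase in the 1008 exons, where 65.3% held at least 1, and 1.18 times per kilobase in all 5585 long internal coding exons, where 59.2% did. Internal coding exons under 400 bases had 1.15 per kilobase and 18.7% held it. The reverse complement AGTCC stood 1.25 times per kilobase in the 1008 exons. The 35 exons that rose in usage held 52 GGACT in 43333 bases, and the 24 that fell held 40 in 34593 bases, or 1.16 per kilobase, against 1.10 per kilobase in those not called. For level it was 1.12 in rises, 1.17 in falls and 1.07 in exons not called. No m6A was measured here.

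**Figure D5:**
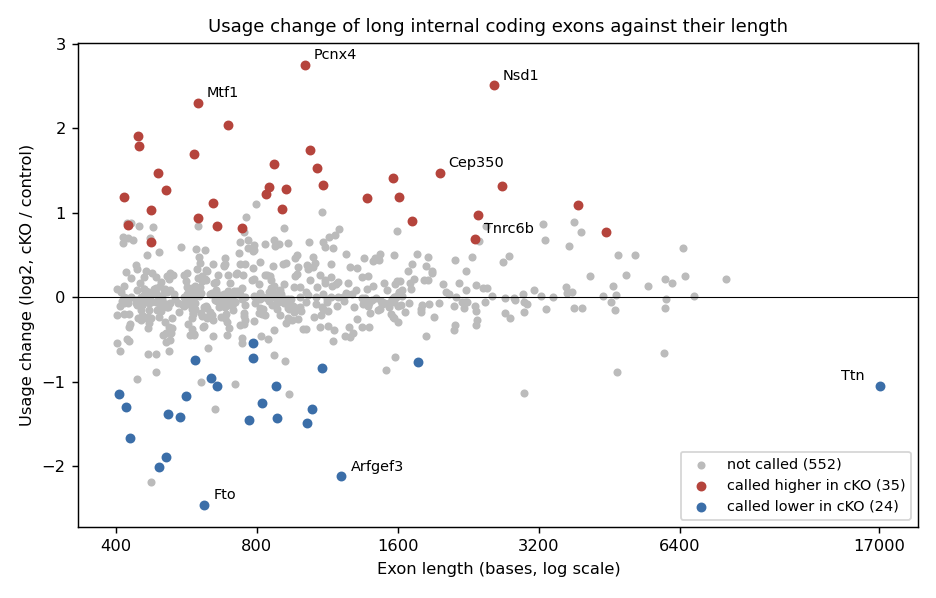
Usage change (log2, cKO over control) of 611 long internal coding exons against exon length on a log axis. Called rises (35, red) and falls (24, blue) are mixed below 2000 bases, above which the Ttn exon of 17106 bases is the one fall, and 552 exons (grey) were not called.

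The gene lists are read against the 53.5% of all tested exon IDs called for level and the 13.3% called for usage. Genes of the m6A machinery had 9 of the exons, and 3 of 7 tested were called for level (42.9%). Virma itself had a pair. Its exon of 1141 bases, chr4:11513028-11514168, had 9, 26, 16 and 14 counts in cKO libraries and 17, 29, 44 and 22 in control libraries. The groups overlap, and the level fell by 0.99 (SE 0.38, edgeR adjusted p = 0.0366), while the last exon of Virma fell by 1.83. That call was lost under 6 of 15 alternatives, and the exon of 1141 bases did not pass the usage test (0.71, adjusted p = 0.268). The next Virma exon, of 489 bases, had 6, 2, 5 and 1 counts in cKO libraries and 10, 8, 20 and 12 in control libraries and was not tested. The labels do not say which exons are floxed. Ythdf1, a cytoplasmic m6A reader, had 90, 84, 105 and 123 counts on its 1521-base exon in cKO libraries and 45, 53, 38 and 34 in control libraries, with the groups apart. Its level rose by 1.04 (SE 0.20, edgeR adjusted p = 0.000474) and its last exon by 0.94, without a usage call. The paralog Ythdf3 had 1100, 706, 833 and 941 counts on its 1599-base exon in cKO libraries and 854, 726, 1236 and 557 in control libraries, which did not pass (adjusted p = 0.684). Fto, described above, was the only one of 6 tested for usage in this list to be called (16.7%).

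Chromatin and transcription genes held 52 of the exons. Level rose in 10 and fell in 5 of 42 tested (35.7% called), with a median of 0.29, and usage rose in 3 and fell in none of 35 (8.57%). Both shares are below those over all exon IDs. The 3 were Nsd1, Ncoa3 and Phf3. The 869-base exon of Ncoa3, a nuclear receptor coactivator, had 19 to 33 counts in cKO libraries and 11 to 23 in control libraries, and its usage change was 1.57 (SE 0.30, edgeR adjusted p = 0.000416). The last exon of Ncoa3 fell by 1.29. Phf3, a gene for a PHD finger protein, had a share of 77.0% ± 9.88 in cKO and 42.2% ± 7.40 in control oocytes on its 1717-base exon, a call (adjusted p = 0.0257) lost under 6 of 15 alternatives. The level of that exon was not called (log2 fold change 0.43, edgeR adjusted p = 0.177). The other tested Phf3 ID, of a single-exon transcript, shares bases with it and fell by 1.84, so the usage change is measured against an overlapping ID.

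Kinetochore, spindle and centrosome genes held 41. Level rose in 6 and fell in 7 of 36 tested (36.1%), and usage rose in 4 and fell in none of 33 (12.1%, near the background). Cep350, a centrosomal microtubule anchor, had 157, 156, 163 and 128 counts on its 1964-base exon in cKO libraries and 21, 33, 28 and 37 in control libraries. The last exon of Cep350 had a log2 fold change of -0.15, and the share of the long exon was 55.4% ± 3.71 in cKO and 20.2% ± 5.87 in control oocytes (usage change 1.47, SE 0.25, edgeR adjusted p = 0.000128). Cep162, a gene for a centriole protein, had a usage change of 1.12 (edgeR, adjusted p = 0.0113, lost under 5 of 15 alternatives) with no level call, and its last exon fell by 1.18. Tacc1, of the transforming acidic coiled-coil family, had a level change of -0.76 (adjusted p = 0.0607) and a usage change of 1.32 (adjusted p = 0.00506), while its last exon fell by 2.13. Ninl, described above, was the fourth. The usage calls on Cep162 and Tacc1 were lost when last exons were left out, with log2 changes of 0.34 and 0.58.

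RNA processing genes held 16, with 3 rises and 1 fall in level among 15 tested (26.7%) and 2 rises and no fall in usage among 13 (15.4%). Tut7, a terminal uridylyltransferase that tails maternal RNA in oocytes, had 15, 8, 12 and 15 counts on its 1076-base exon in cKO libraries and 2, 6, 11 and 5 in control libraries. Its share was 92.1% ± 9.77 in cKO and 30.1% ± 13.8 in control oocytes (usage change 1.53, edgeR adjusted p = 0.0125). Its level was not called (0.84, adjusted p = 0.117), while an upstream last exon, the other tested one, fell. Tnrc6b, a partner of Argonaute proteins, had a usage change of 0.69 with an adjusted p of 0.049, lost under 11 of 16 alternatives. Pcf11, a gene for pre-mRNA 3′ end processing, rose in level by 0.95 (adjusted p = 0.0266) with overlapping groups and lost that call in 5 of the 8 fits that left out 1 library.

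Cytoskeleton, trafficking and scaffold genes held 27, with 5 rises and 2 falls in level among 21 tested (33.3%) and 2 rises and no fall in usage among 16 (12.5%). Akap11 had 58, 105, 141 and 94 counts on its 4441-base exon in cKO libraries and 24, 34, 28 and 32 in control libraries (log2 fold change 1.55, edgeR adjusted p = 0.000186). Its usage change of 0.77 (adjusted p = 0.0453) was lost under 9 of 15 alternatives. Arhgap35, another gene for a GTPase-activating protein, had a usage change of 1.08 (adjusted p = 0.0171), lost under 5 of 14 alternatives, and a last exon that fell by 1.01. Vps13b, a lipid transport gene, had a usage change of -0.64 that did not pass (adjusted p = 0.135).

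Ubiquitin and protein turnover genes held 15, with 1 rise and 2 falls in level among 11 tested (27.3%). Hectd4, described above, was the fall in usage among the 10 tested for it. Fbxo38, an F-box gene, fell in level by 0.70 (adjusted p = 0.0288) with overlapping groups, a call lost under 6 of 15 alternatives. The DNA repair and checkpoint genes held 17, with 3 rises and 1 fall in level among 15 tested (26.7%) and no usage call among 11. Fancb, Mdc1 and Bod1l, the 3 of smallest usage p among them, had usage changes of -0.51, 0.23 and -0.13. Meiosis and germ cell genes held 8, with 1 rise and 3 falls in level among 7 tested (57.1%) and no usage call among 5. Fbxo43, the meiotic inhibitor EMI2, fell to 166 ± 5.94 CPM in cKO, against 261 ± 96.4 CPM in control libraries (log2 fold change -0.65, edgeR adjusted p = 0.0105). Mastl, the Greatwall kinase gene, had 583 ± 72.5 CPM in cKO and 543 ± 115 CPM in control libraries, and Taf4b a log2 fold change of -0.06, neither past the test. The 813 exons in no list had 164 rises and 102 falls in level among 628 tested (42.4%) and 23 rises and 22 falls in usage among 473 (9.51%).

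The longest exons after that of Ttn showed rises, falls and no call. The 9659-base exon of Fsip2, a gene of the sperm tail sheath, had 31, 14, 10 and 24 counts in cKO libraries and 60, 35, 36 and 44 in control libraries (log2 fold change -1.32, edgeR adjusted p = 0.0022). The 8020-base exon of Spen, a transcriptional corepressor gene, had 45, 75, 72 and 58 counts in cKO libraries and 11, 12, 10 and 9 in control libraries. The groups of Spen are apart, its level rose by 2.37 (edgeR, adjusted p = 3.26e-06) and its last exon rose by 1.84. The 7978-base exon of Fam186a had a log2 fold change of 0.23 (adjusted p = 0.342). The 7467-base exon of Apob, the apolipoprotein B gene, had 0 to 8 counts in cKO libraries and 7 to 15 in control libraries and was not tested.

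At the limits of the rule, the shortest exons inside were those of Mrc1 and Hpcal1, at 402 bases, with means of 2.21 and 41.1 CPM in cKO and 4.69 and 57.9 CPM in control libraries. Just outside, at 399 bases, Ppef2 had 2.08 CPM in cKO and 0.350 CPM in control libraries, and Kcnk7 had 3.16 CPM in cKO and 0.130 CPM in control libraries. Exons of 40 counts, the lowest total inside, numbered 11, among them those of Slc28a3, with 7 counts in cKO and 33 in control libraries, and Bsdc1. Another 9 long exons had 39 counts, among them those of Rnf43 and Macf1.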

How the data were processed

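RNA of GV oocytes was measured in 8 libraries. The authors deposited whole-number read counts per exon ID. Per the submitters' processing notes, STAR, HTSeq and mm10 were used. Neither their versions nor the counting options or annotation release are known here. Summary lines that name no exon were left out. Exon IDs were matched, ignoring versions, to GENCODE M21 (GRCm38): 494230 of 496288 (99.6%) matched, and the 2058 unmatched, with 0.252% of counts, were left out.

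Level was tested with edgeR 4.0.16 (R 4.3.3): filterByExpr (minimum count 10), TMM, a two-sided quasi-likelihood test on genotype alone, with p-values adjusted over all tested exon IDs by Benjamini-Hochberg and a threshold of 0.05. Usage was tested with diffSpliceDGE on the same counts. A standard error is the coefficient over the root of F. Functions were tested on simulated data. Alternatives used limma 3.58.1 and DESeq2 1.42.0. Intervals cover counting error only.

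The exons, gene lists and rules were chosen with earlier results of these data known. Exons were named by fixed rules: m6A genes, the largest called changes with groups apart (8 per direction in usage, 6 in level with a mean of at least 5 CPM), the 3 of smallest usage p per list, the 8 highest per kilobase, the 5 longest, genes with 4 or more, and exons at the limits. Exons named otherwise are said to be so. Figures and sequences came from Python 3.11.15. A few items that these rules name are not reported here.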

Additional observations from a re-analysis of the deposited data

Results flagged for a closer look

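In 356 groups of 4 libraries, 1 library stood farther from the others than Dixon's 95% limit in 14, which chance alone gives in about 1 group in 20. No explanation was examined. Of the 14, 8 were in cKO and 6 in control libraries, 4 of these at control replicate 3.

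For level, Cep350 (1964 bases) had 24.1 CPM in cKO replicate 4, against 33.3 to 34.9 CPM in the other cKO libraries. Fto (619 bases) and Ttn (2967 bases) each had 0.222 CPM in cKO replicate 1, a single count, against 1.13 to 1.28 CPM. Lrr1 had 1126 CPM in cKO replicate 2, against 1047 to 1060 CPM. Ncoa3 had 7.04 CPM in cKO replicate 3, against 4.06 to 4.44 CPM. Alms1 (1547 bases) had 5.45 CPM in control replicate 3, against 2.91 to 3.12 CPM. Kmt2c (1896 bases) had 9.61 CPM there, against 4.32 to 4.74 CPM. Oog3 had 1685 CPM in control replicate 1, against 1894 to 1910 CPM.

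For usage, Col6a6 (621 bases) had 6.86% in cKO replicate 2, against 2.19% to 2.53%. Ncoa3 had 3.68% in cKO replicate 3, against 1.83% to 2.14%. Nlrp2 had 86.9% in cKO replicate 2, against 90.1% to 90.3%. Erich1 had 26.3% in control replicate 3, against 31.3% to 31.8%, and Kmt2c (1896 bases) had 6.64% there, against 2.77% to 3.39%. Zc3h13 (651 bases) had 2.28% in control replicate 4, against 3.81% to 3.93%.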

How the results depend on the processing

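Among the named exons, no called result changed sign under the alternatives run, while 7 level and 15 usage values that were not called did. Of 325 level calls, 240 were kept in all 8 fits that left out 1 library, and of 59 usage calls, 32. Leaving out 1 library gave 165 to 269 rises and 117 to 141 falls in level, and 23 to 61 rises and 19 to 26 falls in usage. A minimum length of 800 bases, which leaves fewer exons, gave 110 rises and 68 falls in level and 20 rises and 9 falls in usage. Usage rises numbered 21 with a minimum count of 20, 15 with last exons left out, 19 against last exons only and 23 in exons that share no base with another exon ID. Usage falls numbered 7 with last exons left out and 15 in exons that share no base. Fewer exons are tested in these settings, but calls were also lost among exons still tested. With last exons left out, 38 of the 59 called exons were still tested and 21 kept the call. Against last exons only, 53 were tested and 37 kept it. With a minimum count of 20, 36 were tested and 35 kept it. The cause of the lost calls was not tested. RLE factors, no filter beyond 1 count, a minimum of 100 counts or of 300 bases, limma's diffSplice (52 rises, 36 falls) and DESeq2 for level gave counts within 1.5 times those reported. Without scaling factors all log2 fold changes moved by 0.13, and with TMM over internal coding exons by 0.0764.

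Same-numbered libraries of the genotypes had correlated deviations of only 0.0964, -0.0429, 0.0939 and 0.0334, and not every library correlated best with its own number. Correlations from so few libraries cannot decide whether the numbers pair them, and the labels do not say. With a replicate block, 210 exons rose and 125 fell in level (316 calls shared with those reported), and 36 rose and 22 fell in usage (54 shared). Of the named exons, 11 of 57 called for level and 16 of 33 called for usage lost the call under at least 1 alternative, and 6 and 5 that were not called gained one. Depth limits exons under 100 counts most.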
